A study of Mus musculus with 29 samples.

Results

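The genes described here are 9 genes of the epithelial tight junction, chosen by name from the 35199 genes in each table. They are the claudins Cldn1, Cldn3, Cldn4, Cldn7, Cldn8 and Cldn23, the membrane protein genes Ocln and F11r, and the scaffold gene Tjp1. All 9 were listed in every table used and passed the filter on low values in each comparison. The study used RNA-seq of mouse urothelium, the epithelium of the bladder, to follow cells that express VP16;Pparg, a form of the nuclear receptor Pparg fused to a viral activator that acts without ligand. The transgene sits at the Rosa26 locus. Tamoxifen switches it on through Krt5CreERT2, a Cre recombinase whose promoter is active in basal cells. The mutants (labelled K5VP16;Pparg+/-) therefore express it only in recombined basal cells and their progeny. Mice were adults at induction. In 21 of the 29 libraries of the series the labels and headers gave the group, and these are used here.

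The first set of libraries came from Gfp-positive cells sorted 4 days after tamoxifen, 4 from controls labelled wild type and 5 from mutants, none of them given a carcinogen. Both groups carried the mTmG reporter, which turns recombined cells Gfp-positive, and the study names its control mice K5;mTmG in some places and VP16;Pparg fl/fl in others. The other libraries came from mice that drank BBN, a nitrosamine that causes bladder cancer, at 0.05% in water. Tamoxifen was given after 1 month of BBN and lesions were collected 4 months after it, and the labels record 5 months of BBN. From these, cells were cut out by laser capture: 3 basal tumors of mice labelled wild type, 3 luminal tumors of mutants, and 3 luminal domains and 3 basal-like domains, which are the top and the bottom of mixed mutant lesions. The labels name no animal, so the top and bottom libraries may share lesions or mice, and a p-value measures the spread between these libraries. Libraries are called A, B, C and so on within a group, as names without order.

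Tight junctions seal the space between neighbouring epithelial cells near their apical side. Claudins span the membrane and set which ions and how much water pass, some acting as seals and others as pores. Ocln encodes occludin, another membrane-spanning protein of the same strands, F11r encodes the adhesion molecule JAM-A, and Tjp1 encodes ZO-1, the scaffold that ties these proteins to actin. In the bladder the seal lies in the superficial cells, which face the urine, while the basal cells rest on the basement membrane.

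The 9 genes lie on 7 chromosomes of GRCm38, the mouse build named in the processing notes, with positions taken from GENCODE M21. Cldn3 (ENSMUSG00000070473, chr5:134986214-134987472, plus strand) and Cldn4 (ENSMUSG00000047501, chr5:134945119-134946934, minus strand) are neighbours 39279 bases apart, with no annotated protein-coding gene contained between them. Both have 1 exon, as do Cldn8 (chr16:88560828-88563183) and Cldn23 (chr8:35824712-35826559), both on the minus strand. Cldn1 (chr16:26356642-26371841, minus strand) and Cldn7 (chr11:69964779-69967885, plus strand) have 4 exons in their principal transcripts. Ocln (chr13:100496507-100552718, minus strand) has 9 exons, F11r (chr1:171437535-171464603, plus strand) 10 and Tjp1 (chr7:65296165-65527781, minus strand) 28. The antisense gene Wbscr25 overlaps Cldn3, and the library kit does not mark strand, so reads of the pair cannot be told apart.

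RefSeq entries with sequence before the start site (GRCm38.p6) matched 7 of the 9 genes, Cldn8 and Cldn23 being the others. For the genes with 2 entries, Cldn7 and Ocln, the outermost start was used. Shown are the 250 bases before the start of Ocln, the member with an entry that passed the test in tumors, and of Cldn4 and Cldn7, the most abundant claudins per transcript length, each written 5′ to 3′ on the gene's own strand. Capitals mark every match, on either strand, to 1 of 6 motifs: AGGTCA (the nuclear receptor core motif), its direct repeat with 1 base between the copies (which contains the core motif), AACCNGGTT (grainyhead-like), CACCTG (the E-box read by Snail and Zeb), TGANTCA (AP-1) and GGGCGG (GC box).
Ocln chr13:100552719-100552968, minus strand: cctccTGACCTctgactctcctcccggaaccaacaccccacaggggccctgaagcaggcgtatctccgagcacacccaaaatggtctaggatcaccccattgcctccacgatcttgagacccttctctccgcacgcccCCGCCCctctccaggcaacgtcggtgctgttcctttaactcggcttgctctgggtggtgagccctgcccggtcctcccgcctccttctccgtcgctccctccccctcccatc
Cldn4 chr5:134946935-134947184, minus strand: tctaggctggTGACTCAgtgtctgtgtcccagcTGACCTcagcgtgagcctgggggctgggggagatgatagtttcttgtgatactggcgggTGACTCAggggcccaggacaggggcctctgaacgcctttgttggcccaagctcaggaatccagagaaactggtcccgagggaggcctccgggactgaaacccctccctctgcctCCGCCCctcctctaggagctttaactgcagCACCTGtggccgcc
Cldn7 chr11:69964529-69964778, plus strand: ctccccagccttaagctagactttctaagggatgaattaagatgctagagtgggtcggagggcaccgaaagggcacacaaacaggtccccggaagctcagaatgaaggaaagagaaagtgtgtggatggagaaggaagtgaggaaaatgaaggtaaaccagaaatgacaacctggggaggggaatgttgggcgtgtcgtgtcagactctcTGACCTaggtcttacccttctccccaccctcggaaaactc

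The nuclear receptor core motif was found in 3 of the 7 windows, those of Ocln, Cldn4 and Cldn7 printed above, against 14.0% of all 32851 windows of this length. Its direct repeat matched none of the 7 and 0.0335% of all windows. The grainyhead-like motif likewise matched none of the 7, against 0.24% of all. The E-box was found in 2 windows (Cldn4 and F11r) against 17.2% of all, and the AP-1 motif in the same 2 against 6.75%, the Cldn4 window holding 2 copies. The GC box was found in 6 windows, all but that of Cldn7, against 32.7% of all. The GC content was 64.0% for Ocln, 62.0% for Cldn4 and 51.2% for Cldn7, and the median over all windows was 52.4%. These matches describe letters in the windows only.

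Values are normalized counts, which the authors scaled separately in each table, so levels were compared only within a table. Depth in reads is unknown, and the normalized counts of a library summed to between 36520193 and 41435665 in the 4-day table and between 41697178 and 53252995 in the tumor table. Each comparison used limma on log2(normalized count + 1) across all genes that passed the filter, with Benjamini-Hochberg adjustment, and a gene is called when its adjusted p is under 0.05.

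Per transcript length, the members fell into tiers in control cells. In 4-day controls Cldn4 stood at 7840.3 ± 1064 normalized counts per kb (SD, n = 4), Cldn7 at 7014 ± 555 and F11r at 6641 ± 902, and the ranges of neighbours in this order overlapped. A middle tier held Cldn8 (1033 ± 113 per kb), Tjp1 (916 ± 66.3), Ocln (755 ± 103) and Cldn23 (701 ± 387), again with overlapping neighbours. Cldn3 (89.7 ± 95.2 per kb) and Cldn1 (58.7 ± 14.7) were lowest. The ranges did not overlap between F11r and Cldn8 nor between Cldn23 and Cldn3.

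In basal tumors Cldn7 had the highest mean at 4652 ± 4835 normalized counts per kb (SD, n = 3), and Ocln (70.8 ± 27.5) and Cldn23 (63.2 ± 34.3) had the lowest of the 9. All neighbours in that order overlapped. In luminal tumors Cldn4 (18907 ± 19521 per kb, n = 3) and Cldn7 (16931 ± 3728) led and Cldn23 came next (4788 ± 5118), while Ocln stood at 429 ± 102. There the ranges of Cldn7 and Cldn23 did not overlap, nor did those of Cldn3 and Tjp1 or of Ocln and Cldn1.

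The transgene and cell type markers bear on the comparisons. Pparg, whose values cannot separate transgene reads from endogenous ones, stood at 9705 ± 266 normalized counts in 4-day controls (SD, n = 4) and 7622 ± 1223 in mutants (n = 5, limma adjusted p = 0.126, unadjusted p = 0.0126). Every mutant lay below every control, as 4.51% of all genes did. Fabp4, a target of Pparg, rose by 4.64 ± 0.49 on the log2 scale (SE, limma adjusted p = 0.001710). In tumors Pparg stood at 80.3 ± 59.4 in basal tumors and 6476 ± 2606 in luminal tumors (SD, n = 3 each) and rose by 6.74 on the log2 scale (limma adjusted p = 0.0127). Fabp4 overlapped between the tumor groups, from 75.5 to 48303 in basal and 31727 to 310097 in luminal tumors (adjusted p = 0.178), and was not called in luminal domains against basal tumors either (adjusted p = 0.336). Summed pan-epithelial markers (11 genes, none at 0 throughout a group) ranged from 86050.2 to 208068 normalized counts in basal tumors, 484175 to 823444 in luminal tumors and 773221 to 786919 in the luminal domains of that table. The 11 include keratin genes, and Krt18 is also on the superficial cell list. The median log2 difference of luminal from basal tumors was 1.73 for the 11. It was 1.25 for the 7 of them that are not keratins, which are used for pan-epithelial centring. Summed fibroblast markers (9 genes, none at 0 throughout a group) ran the other way, from 47328 to 85538 in basal tumors, 227 to 17675 in luminal tumors and 5839 to 30094 in luminal domains. The epithelial gene Epcam did not follow the pan-epithelial sum. It stood at 17182 ± 8002 in basal and 15168 ± 6525 in luminal tumors (SD, n = 3 each, limma adjusted p = 0.907). Superficial cell markers (9 genes, the Pparg target Fabp4 among them) summed to between 5392 and 61925 in basal tumors and between 256776 and 1207690 in luminal tumors. Of the 9, 5 were called and higher, and the median log2 difference was 8.70. These sums thus include the Fabp4 values given above. Basal cell markers (8 genes) summed to between 386815 and 815132 in basal tumors and between 18143 and 300110 in luminal tumors, and smooth muscle markers (7 genes, Des and Myocd at 0 in every luminal tumor) to between 6011 and 51244 and between 149.6 and 1254. In the 4-day sort the summed basal cell markers (8 genes) lay between 168432 and 202818 in controls, above every mutant (131937 to 158871). By marker, differences were positive for 4 and negative for 4 (median 0.13, log2), with 1 called and higher and 1 called and lower. Superficial cell markers (9 genes) lay between 212232 and 408086 in controls and between 270433 and 552319 in mutants. Differences were positive for 9 of 9, with a median of 0.61, and 2 were called, Fabp4 among them. Pan-epithelial markers ranged from 394394 to 510008 and from 421241 to 900876, with 10 of 11 differences positive and none called (3 at an unadjusted p under 0.05), and fibroblast markers from 12175 to 86629 and from 31842 to 224748, with 9 of 9 positive and 1 called. Beyond pan-epithelial centring, the part of these markers in the 4-day values was not tested. In such bulk samples fewer cells of a type and less RNA per cell cannot be told apart.

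The first comparison asks how the 9 genes stood in Gfp-positive cells 4 days after VP16;Pparg was switched on. None of the 9 passed the test, against 2.85% of the 16413 genes tested (1.77% higher and 1.08% lower), and 2 of 9 (Cldn1 and Cldn4) had an unadjusted p under 0.05, against 20.8% of genes. Differences were positive for 6 members and negative for 3, with a median of 0.26 on the log2 scale beside 0.0045 for all genes tested. Summed Y-linked transcripts (4 genes) were 338 to 395 in mutants and 404 in control A, against 9030.2 to 9177 in controls B to D. The Y-linked level thus nearly followed the group, and the parts of the 2 groupings cannot be told apart well here. With that level as a covariate, 25 genes were called in place of 467.

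Cldn1, a sealing claudin known from the skin barrier, stood at 151, 147, 231 and 232 normalized counts in control libraries A to D. In mutant libraries A to E it stood at 292, 255, 264, 459 and 386. Every mutant library lay above every control library, as 4.67% of all genes did, while 4.51% lay wholly below. The difference was 0.79 ± 0.25 SE on the log2 scale, with a limma adjusted p of 0.107 and a 95% interval of 0.24 to 1.34. Over the 12 other settings, the Y-linked covariate among them, the adjusted p was between 0.0628 and 0.457.

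Cldn4, a claudin of the upper urothelium known to limit sodium passage, stood at 12263, 13032, 16452 and 15205 normalized counts in controls. In mutants it stood at 32028, 32427, 30609, 12069 and 22808, so 4 of the 5 mutant libraries lay above all controls and mutant D lay below them. The difference was 0.79 ± 0.28 SE (log2, limma adjusted p = 0.145). Without mutant D it was 1.05 with an adjusted p of 0.0125, so the call turned on that library, and leaving out each of the others gave adjusted p-values up to 0.298. Mutant D had the lowest mutant value of 6 members, Cldn4, Cldn7, Cldn8, Cldn23, Ocln and F11r. It had the highest mutant value of Cldn1 (459) and lay within the range of the other mutants for Cldn3 and Tjp1. Its summed pan-epithelial and superficial cell markers (421241 and 270433) were also the lowest of the mutants. With pan-epithelial centring the Cldn4 difference was 0.61 (adjusted p = 0.184), and the part of the superficial cell markers was not tested. Over all 12 settings other than leaving out a library, the Y-linked covariate among them, the limma adjusted p of Cldn4 was between 0.0682 and 0.525.

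Cldn23, a claudin known from differentiated intestinal epithelium, stood at 2365, 1003, 874 and 942 normalized counts in controls. In mutants it stood at 3035, 2392, 1445, 822 and 1711, and the groups overlapped through control A and mutant D. The difference was 0.53 ± 0.40 SE (log2, limma adjusted p = 0.485, 95% interval -0.36 to 1.43). Control A was also the only control with few Y-linked transcripts, a sum of 404 over 4 genes against 9030.2 to 9177 in controls B to D and 338 to 395 in the mutants. With the Y-linked level as a covariate the Cldn23 difference was -0.40 with an SE of 0.57 (limma adjusted p = 0.893, and between 0.0901 and 0.893 over the settings other than leaving out a library).

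Cldn8, a claudin best known from the distal kidney tubule, stood at 2821, 2333, 2366 and 2217 in controls and at 3155, 3383, 2629.8, 2127 and 3439.6 in mutants, where 3 of the 5 libraries exceeded every control. Its difference was 0.26 ± 0.15 SE (log2, limma adjusted p = 0.365). Cldn3 had wide and overlapping ranges of 15.2 to 287 in controls and 33.9 to 310 in mutants, a difference of 0.71 ± 0.82 SE (adjusted p = 0.664). Cldn7, abundant in both groups, stood at 9364 ± 741 normalized counts in controls (SD, n = 4) and 9353 ± 1798 in mutants (n = 5), and the 95% interval of its log2 difference ran from -0.35 to 0.31. The intervals of the 3 members that are not claudins were similarly narrow, -0.60 to 0.22 for Ocln, -0.20 to 0.28 for Tjp1 and -0.40 to 0.08 for F11r (log2). Summed fibroblast markers ranged from 12175 to 86629 normalized counts in controls and from 31842 to 224748 in mutants, with 8 of 9 markers at an unadjusted p under 0.05. Smooth muscle markers (7 genes) summed to between 181 and 1054 in controls and between 413 and 2745 in mutants. Their differences were positive for 7 of 7 (median 1.47, log2), with 0 called and 4 at an unadjusted p under 0.05. The part of both lists in these values was not tested.

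**Figure D1:**
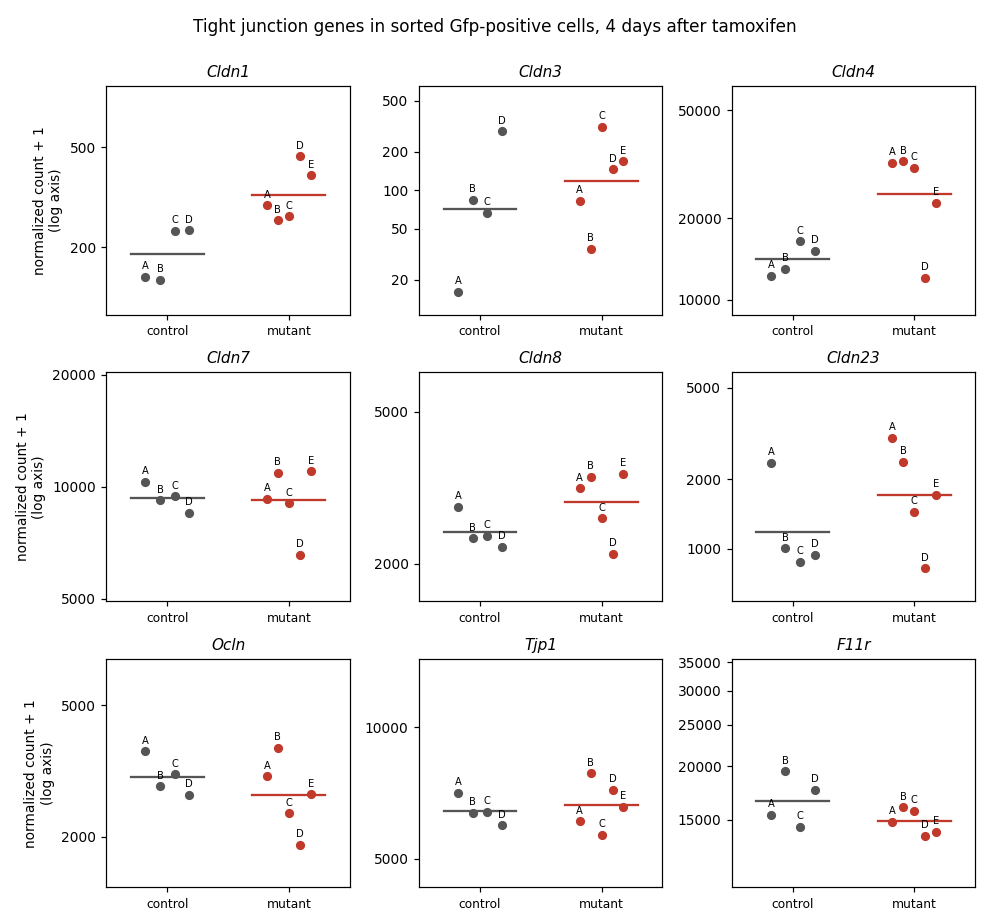
Normalized count + 1 (log axis) of each of the 9 genes in sorted Gfp-positive cells 4 days after tamoxifen, by library (points, lettered), in 4 control and 5 mutant libraries, with a line at the mean of the log values. Cldn1 is the member whose groups do not overlap, and mutant D lies below the other mutants in Cldn4.

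The second comparison sets luminal tumors of mutants against basal tumors of controls. Cldn23 and Ocln rose in luminal tumors, so 2 of 9 members were called, against 1.73% of the 16640 genes tested (1.02% higher and 0.715% lower). The 4 members Cldn7, Cldn23, Ocln and F11r had every luminal tumor above every basal tumor, as 9.29% of all genes did, while 11.4% lay wholly below. An unadjusted p under 0.05 was found for 4 of 9 members (Cldn4, Cldn7, Cldn23 and Ocln), against 17.9% of genes. The median difference of the 9 was 1.98 on the log2 scale, beside -0.14 for all genes tested, and 7 of the 9 differences were positive. The same basal tumors serve in the next comparison, and luminal domains serve in 3 of the 5 comparisons, so the comparisons are not independent of each other.

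Cldn23 stood at 49.9, 124 and 176 normalized counts in basal tumors A to C. In luminal tumors A to C it stood at 5159.8, 19596 and 1789.7. The lowest luminal tumor thus exceeded the highest basal tumor, and the luminal tumors themselves spread widely. Cldn23 rose by 5.76 ± 0.83 SE on the log2 scale, with a limma adjusted p of 0.0199 and a 95% interval of 3.91 to 7.62. The call was lost without basal tumor A, luminal tumor A or luminal tumor B, and also without luminal domain A or B, fits that leave these tumors as they are but change the shared spread and, since the smallest group is then 1 library, let 18527 or 18547 genes through the filter in place of 16640 (adjusted p 0.0814 to 0.109, log2 difference 4.87 to 5.83). Over the other settings its adjusted p was between 0.003470 and 0.0583.

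Ocln stood at 162, 323 and 376 normalized counts in basal tumors and at 1808, 2116 and 1294 in luminal tumors. Every luminal tumor stood far above every basal tumor. Ocln rose by 2.65 ± 0.52 SE on the log2 scale (limma adjusted p = 0.0426, 95% interval 1.48 to 3.83), which lies close to the threshold. Leaving out luminal tumor C kept the call (adjusted p = 0.0348), and leaving out any other library (basal tumors A, B or C, luminal tumors A or B, luminal domains A or B) lost it, with adjusted p between 0.0625 and 0.145 and log2 differences of 2.29 to 2.89. When each library was centred on 7 pan-epithelial genes, which moved the median of all genes from -0.14 to -1.39, the difference was 1.41 for Ocln (adjusted p = 0.0908, against 0.0133 to 0.0908 over the other settings) and 4.52 for Cldn23 (adjusted p = 0.0190). Pan-epithelial and superficial cell markers, given above, were higher in luminal tumors like both genes. Basal cell, fibroblast and smooth muscle markers, also given above, were lower there. Summed endothelial markers (7 genes) were also lower in every luminal tumor, 449 to 2903 against 2946 to 4453 in basal tumors. Beyond this centring the part of all these markers was not tested.

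Cldn4 stood at 703, 9037 and 1514 normalized counts in basal tumors and 7769, 74589 and 20649 in luminal tumors. The groups overlapped, because basal tumor B exceeded luminal tumor A. The log2 difference was 3.43 ± 1.00 SE, with a limma adjusted p of 0.124 and an unadjusted p of 0.00676. Leaving out 1 library moved it between 2.57 (without luminal tumor B) and 4.47 (without basal tumor B), with adjusted p between 0.0533 and 0.334.

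Cldn7 stood at 1741, 13611 and 3281 in basal tumors and 28302, 19114 and 20392 in luminal tumors. All luminal tumors were higher, and basal tumor B again stood above the other basal tumors. The log2 difference was 2.38 ± 0.68 SE (limma adjusted p = 0.119). Without basal tumor B it was 3.22 with an adjusted p of 0.0296, and leaving out each of the other libraries gave adjusted p-values up to 0.283. Basal tumor B had the most pan-epithelial transcripts of the basal tumors, a sum of 208068 against 86050.2 and 127408. With pan-epithelial centring the differences were 1.13 for Cldn7 (adjusted p = 0.212) and 2.18 for Cldn4 (adjusted p = 0.112).

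F11r stood at 6207, 8747 and 9189 in basal tumors and 11811, 12258 and 9656 in luminal tumors. The groups did not overlap, but the log2 difference was small, 0.50 ± 0.32 SE (limma adjusted p = 0.453), and turned to -0.75 with pan-epithelial centring. Tjp1 stood at 2174, 1946 and 1828 in basal tumors and 4375, 4572 and 813 in luminal tumors, where luminal tumor C lay below all basal tumors. Its log2 difference was 0.36 ± 0.61 SE (adjusted p = 0.804), and turned to -0.89 with that centring.

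The remaining claudins spread widely within the groups. Cldn3 stood at 1674, 528 and 596 in basal tumors and 7951, 3308 and 1223 in luminal tumors (1.98 ± 1.12 SE, limma adjusted p = 0.393). Cldn1 stood at 525, 311 and 2838 in basal tumors and 1036, 441 and 571 in luminal tumors, and its log2 difference of -0.28 had a 95% interval of -2.16 to 1.61. Cldn8 ran from 1.71 to 1033 in basal tumors and from a listed 0 to 442 in luminal tumors, and the interval of its difference was -7.72 to 3.64.

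**Figure D2:**
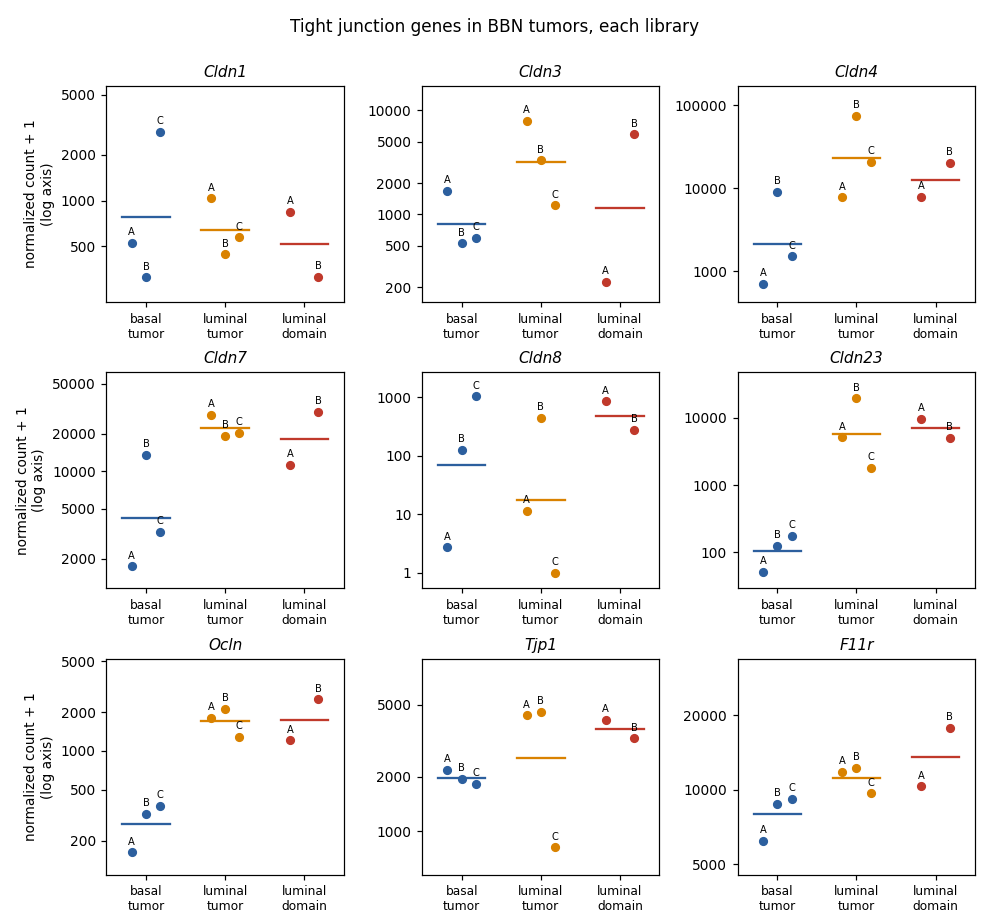
Normalized count + 1 (log axis) of each of the 9 genes in the tumor table, by library (points, lettered), in 3 basal tumors, 3 luminal tumors and 2 luminal domains, with a line at the mean of the log values. Cldn23, Ocln and F11r lie higher in every luminal library than in any basal tumor, while Cldn1 and Cldn8 overlap.

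The third comparison sets the luminal domains of mixed lesions, captured apart from the tissue below them, against the same basal tumors, in a table of its own. Cldn23 and Ocln again rose, so 2 of 9 were called, against 2.53% of the 14921 genes tested (1.70% higher and 0.824% lower). All 9 differences were positive, with a median of 2.23 beside 0.0097 for all genes, although Cldn1, Cldn3, Tjp1 and F11r turned negative with pan-epithelial centring (-0.89, -0.34, -0.82 and -0.61), which moved the median of all genes to -1.43. Cldn23, Ocln and F11r did not overlap with the basal tumors, as held upward for 14.0% and downward for 12.8% of all genes, and 5 of 9 had an unadjusted p under 0.05 (the 3 named with Cldn4 and Cldn7), against 20.6% of genes.

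Cldn23 stood at 54.5, 133 and 189.7 normalized counts in basal tumors and 10761, 5603 and 2213 in luminal domains A to C. The lowest luminal domain exceeded the highest basal tumor. Cldn23 rose by 5.51 ± 0.72 SE on the log2 scale (limma adjusted p = 0.0231, 95% interval 3.86 to 7.16). The call was lost without basal tumor A (adjusted p = 0.0656) or luminal domains A (0.119), B (0.121) or C (0.0579), and over the other settings the adjusted p was between 0.007770 and 0.0546.

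Ocln stood at 178, 349 and 409 in basal tumors and 1347, 2850.1 and 1564 in luminal domains. Again no libraries overlapped. Ocln rose by 2.62 ± 0.53 SE (log2, limma adjusted p = 0.0479, 95% interval 1.41 to 3.84). Leaving out any 1 of the 6 libraries (basal tumors A, B, C or luminal domains A, B, C) lost this call, with log2 differences of 2.26 to 2.86 and adjusted p between 0.0575 and 0.197, and over the other settings the adjusted p was between 0.0417 and 0.105.

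Cldn7 stood at 12022, 32285 and 25435 normalized counts in luminal domains, and basal tumor B at 14086 exceeded luminal domain A. Cldn4 stood at 8362, 21852 and 7564, and basal tumor B at 9331 exceeded luminal domains A and C. The log2 differences were 2.27 ± 0.72 SE for Cldn7 (limma adjusted p = 0.138) and 2.33 ± 0.87 SE for Cldn4 (adjusted p = 0.188). Without basal tumor B both were called, at 3.10 (adjusted p = 0.0307) and 3.36 (adjusted p = 0.0325), and leaving out each of the others gave adjusted p-values up to 0.352 and 0.439. Summed pan-epithelial markers ranged from 90728 to 215085 normalized counts in the basal tumors of this table and from 539330 to 853438 in the luminal domains, and fibroblast markers from 48857 to 89719 and from 5691 to 32181. With pan-epithelial centring the differences were 0.83 for Cldn7 (adjusted p = 0.324), 0.89 for Cldn4 (0.36), 1.183 for Ocln (0.105) and 4.07 for Cldn23 (0.007770). Superficial cell markers summed to between 5671 and 64336 in these basal tumors and between 135762 and 853240 in the luminal domains, with 3 of 9 called and higher. Basal cell markers summed to between 404754 and 866096 and between 192671 and 301591, with 8 of 8 differences negative and 1 called. Smooth muscle markers summed to between 6299 and 57270 and between 1430 and 1911, with 3 of 6 tested called and lower. The part of these lists and of the fibroblast markers was not tested.

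F11r stood at 6585, 9098 and 9639 in basal tumors and 11099, 19392 and 15173 in luminal domains, a log2 difference of 0.83 ± 0.30 SE (limma adjusted p = 0.176). Cldn1 reached 5449.6 in luminal domain C against 905 and 339.7 in the others, and Cldn3 stood at 239 in luminal domain A against 6355 and 3822 in the others. The intervals of the log2 differences were accordingly wide, -2.04 to 3.15 for Cldn1, -1.56 to 3.75 for Cldn3 and -2.37 to 6.83 for Cldn8. For Tjp1 the interval was -0.18 to 1.43.

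**Figure D3:**
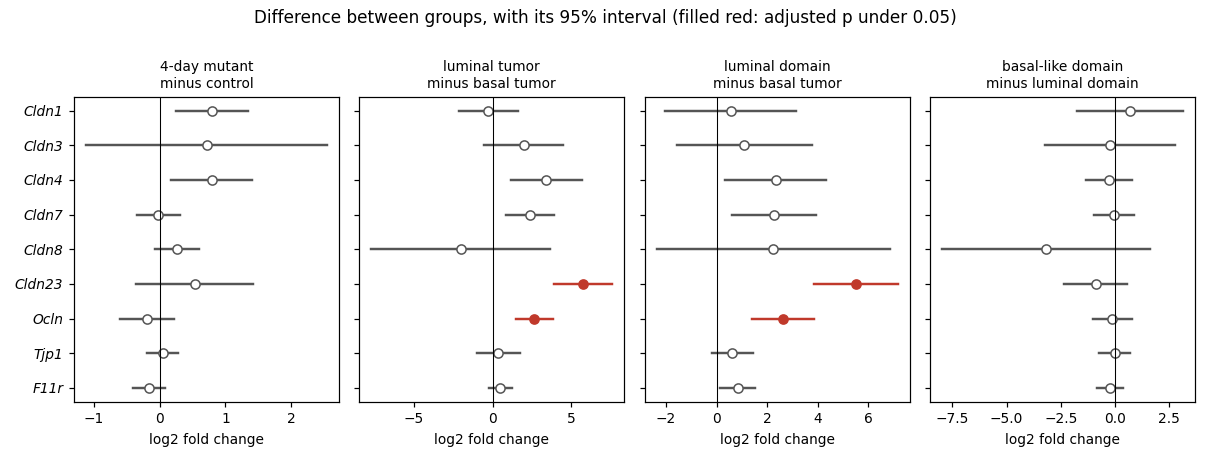
Log2 fold change of each of the 9 genes (points) with its 95% interval (lines) in 4 comparisons, each on its own horizontal scale, with filled red points where the limma adjusted p was under 0.05. Cldn23 and Ocln are filled in both comparisons with basal tumors and no gene is filled in the other comparisons.

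Luminal domains and luminal tumors were compared within the tumor table, where 2 luminal domain libraries were present. None of the 9 members was called, none had an unadjusted p under 0.05 and none was free of overlap. Among all 16640 genes tested, 0% were called with limma, 761 (4.57%) had an unadjusted p under 0.05, and 10.7% lay wholly above and 8.91% wholly below, while without the intensity trend in limma 7 genes were called. With 3 libraries against 2 the intervals were wide, from -1.28 to 1.34 (log2) for Ocln, -1.77 to 2.38 for Cldn23 and -1.99 to 1.42 for Cldn7. The largest difference in size was that of Cldn8, which stood at 10.4, 442 and 0 in luminal tumors and 843 and 275 in luminal domains (4.81 ± 2.83 SE, adjusted p = 0.998).

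The last comparison asks how the 9 genes stood in the basal-like domains at the bottom of mixed lesions against the luminal domains at their top. No member was called, none had an unadjusted p under 0.05 and every member's groups overlapped. Among all 14874 genes tested, 0% were called with limma, 757 (5.09%) had an unadjusted p under 0.05, 5.62% lay wholly above and 5.14% wholly below, and without the trend 20 were called. Differences were negative for 8 of the 9 members, with a median of -0.23 beside 0.0093 for all genes. With pan-epithelial centring, which moved the median of all genes to 0.34, 6 of these 8 turned positive (Cldn3, Cldn4, Cldn7, Ocln, Tjp1 and F11r, at 0.052 to 0.32). Summed pan-epithelial markers ranged from 551554 to 872792 normalized counts in luminal domains and from 399034 to 551967 in basal-like domains, with 11 of 11 differences negative (median -0.40). Fibroblast markers ranged from 5916 to 33210 and from 15107 to 105466, with 8 of 9 differences positive.

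Cldn23 stood at 13468, 7102 and 2803 normalized counts in luminal domains and 6544, 3351 and 1902 in basal-like domains, a log2 difference of -0.89 ± 0.62 SE (limma adjusted p = 0.935, 95% interval -2.33 to 0.54). Ocln stood at 1370.3, 2937 and 1610.1 in luminal domains and 1215, 2310.3 and 1789 in basal-like domains, with an interval of -1.02 to 0.77. For Cldn23, luminal domains A and B lay above every basal-like domain and luminal domain C lay within their range, and the Ocln ranges overlapped widely. Pparg stood at 4876 ± 680.2 in luminal domains (SD, n = 3) and 2819 ± 458 in basal-like domains (n = 3), with every basal-like domain below every luminal domain, as 5.14% of all genes were (limma adjusted p = 0.864, unadjusted p = 0.0104, 95% interval -1.34 to -0.24 on the log2 scale). Summed basal cell markers (8 genes) ranged from 201370 to 311120 in luminal domains and from 284529 to 523407 in basal-like domains, and superficial cell markers (9 genes) from 138343 to 855621 and from 37976 to 327601, and the part of these and the fibroblast markers was not tested.

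Cldn8 stood at 911, 305 and 152 in luminal domains and 327, 173 and 0 in basal-like domains, with an interval of -7.98 to 1.61. For the other members the log2 differences lay between -0.28 (Cldn4) and 0.68 (Cldn1). Cldn1 and Cldn3 ranged more within a domain type than between types: Cldn1 ran from 349 to 5590 in luminal domains and from 995 to 6455 in basal-like domains, and Cldn3 from 239.8 to 6465 and from 381 to 3460. Tjp1, with little spread in basal-like domains (2960 to 3486), had an interval of -0.72 to 0.71.

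**Figure D4:**
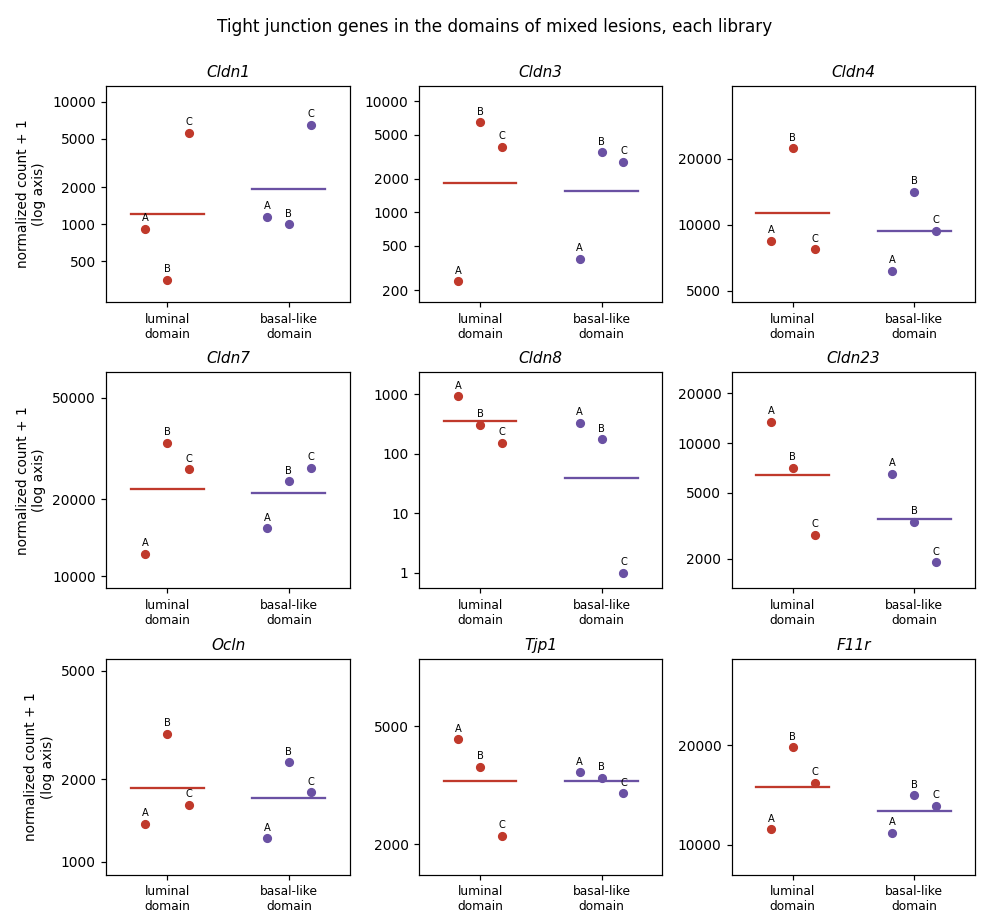
Normalized count + 1 (log axis) of each of the 9 genes in the luminal and basal-like domains of mixed lesions, by library (points, lettered, 3 in each group), with a line at the mean of the log values. The groups overlap for every gene, and letters do not pair libraries across groups.

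The remaining genes of the junction were taken from lists of other claudins (28 names), other junction membrane proteins (14), scaffold and polarity genes (30), adherens junction genes (15) and epithelial regulators (19). Of the other claudins, 26 were listed in the tables and only 4 to 6 passed the filter in any comparison, among them Cldn12, Cldn15 and Cldn34c1 in all 5. At 4 days none of the 4 tested other claudins was called. In that comparison Epcam, which encodes a surface protein that binds claudins, fell by 0.72 on the log2 scale (limma adjusted p = 0.0189), from 12922, 12454, 12539.7 and 12095 in controls to 5901, 7731, 7538, 7844 and 9405 in mutants, without overlap. Prkci, the atypical protein kinase C of the polarity complex, fell by 0.82 (adjusted p = 0.00743), from 12151 to 16005 in controls to 6823 to 8821 in mutants. Nectin3, an adherens junction adhesion molecule, rose by 1.13 (adjusted p = 0.0489), from 246 to 585 in controls to 694 to 1198 in mutants.

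Over 12 other settings Epcam and Prkci lost their calls in 2 each, with the Y-linked covariate (adjusted p = 0.294 and 0.282) and in the deposited table of 3 against 3 libraries, while the log2 differences over the 12 lay between -0.90 and -0.59 for Epcam and between -1.00 and -0.75 for Prkci. Nectin3 lost its call in 7 of the 12, with adjusted p up to 0.671. Epcam also lost it without control B, C or D (adjusted p up to 0.0636), Prkci did not lose it without any single library, and Nectin3 kept it only without control A or mutant B (adjusted p up to 0.106 without the others). In all, at 4 days 1 of 13 tested membrane proteins was called and lower, 1 of 28 scaffold and polarity genes was called and lower, 1 of 11 adherens junction genes was called and higher, and none of 17 regulators was called, beside 2.85% of all genes tested (1.77% higher and 1.08% lower). The median log2 differences were 0.58 for the other claudins, 0.20 for membrane proteins, 0.05 for scaffold and polarity genes, 0.12 for adherens junction genes and -0.13 for regulators, beside 0.0045 for all genes.

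In luminal against basal tumors 1 of 13 other membrane proteins, 2 of 28 scaffold and polarity genes, 1 of 11 adherens junction genes, 2 of 19 regulators and 1 of 6 other claudins were called, beside 1.73% of all genes tested. The called membrane protein gene was Ildr1, which encodes angulin-2, a protein of the tricellular junctions where 3 cells meet. It stood at 21.8, 168 and 12.1 normalized counts in basal tumors and 2318, 6809 and 3453 in luminal tumors, a rise of 6.68 ± 0.91 SE on the log2 scale (limma adjusted p = 0.0193). Among 28 scaffold and polarity genes, Tjp3, which encodes the ZO-1 relative ZO-3, rose by 3.36 ± 0.55 SE (adjusted p = 0.0312), with 182, 519 and 212 in basal and 3681, 3849 and 1564 in luminal tumors. Amotl1, an angiomotin family member, fell by 2.31 (adjusted p = 0.0443), from 2481, 3029 and 3308 to 327, 929 and 668.

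Of 11 adherens junction genes, Nectin2 rose by 1.89 ± 0.39 SE (log2, limma adjusted p = 0.048), and of 19 regulators Elf3, an epithelial ETS factor, rose by 2.15 ± 0.36 SE (adjusted p = 0.0312) together with Pparg itself. Of 6 tested other claudins all differences were negative and Cldn5, the claudin of endothelial cells, was called, falling by 6.38 (adjusted p = 0.0491). It stood at 335, 329 and 56.0 in basal tumors and 2.30, 2.33 and 0 in luminal tumors. Summed endothelial markers (7 genes, Tek at 0 in every luminal tumor) ranged from 2946 to 4453 in basal tumors and from 449 to 2903 in luminal tumors, and their part in the Cldn5 result was not tested. The size of the fall rests on the pseudocount, since the luminal tumors were near 0. The median log2 differences were -2.12 for the other claudins, 0.91 for membrane proteins, 0.02 for scaffold and polarity genes, -0.10 for adherens junction genes and -0.09 for regulators, beside -0.14 for all genes.

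**Figure D5:**
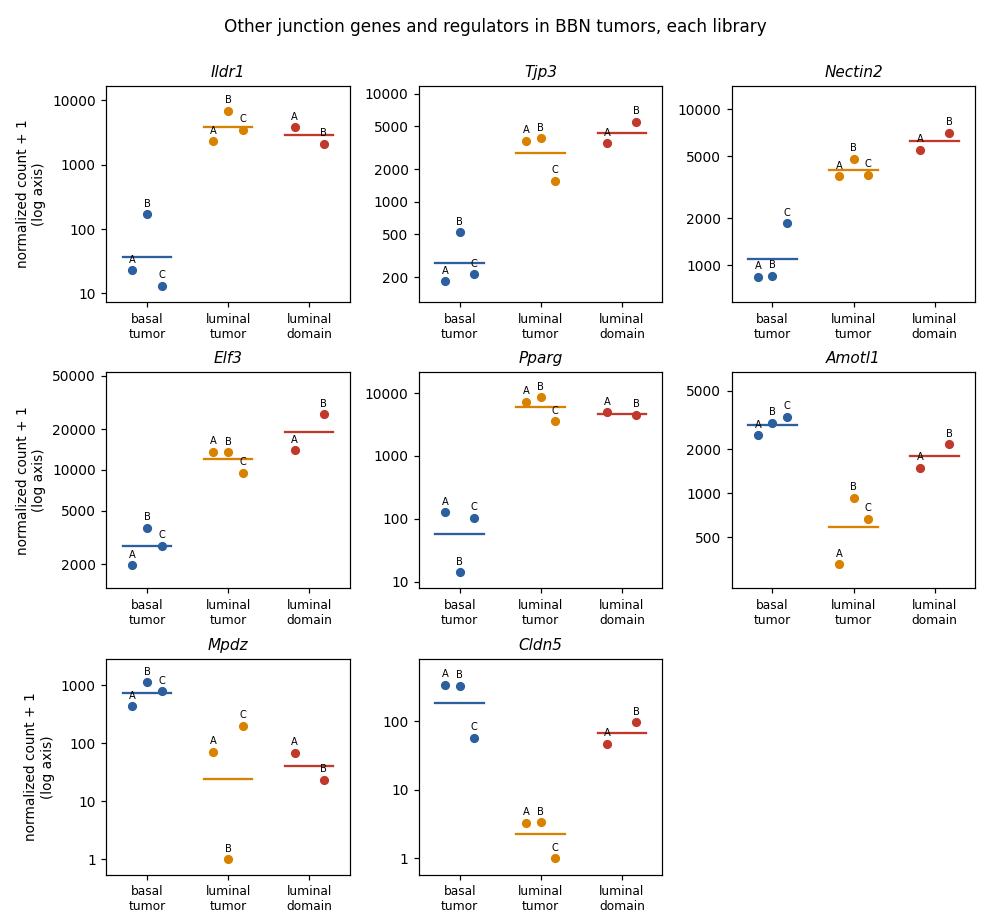
Normalized count + 1 (log axis) of 8 other junction genes and regulators in the tumor table, by library (points, lettered), in 3 basal tumors, 3 luminal tumors and 2 luminal domains, with a line at the mean of the log values. Ildr1, Tjp3, Nectin2, Elf3 and Pparg lie higher in every luminal library than in any basal tumor, and Amotl1 and Mpdz lie lower.

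When 1 library was left out, the differences of these other genes lay between 5.93 and 7.78 for Ildr1, 5.73 and 7.32 for Pparg, 3.08 and 3.83 for Tjp3, 1.92 and 2.38 for Elf3, and 1.70 and 2.27 for Nectin2 (log2). Ildr1 kept its call in all 12 other settings but, among fits leaving out 1 library, only without basal tumors B or C or luminal tumor C (adjusted p up to 0.107 without each of the others). Tjp3 and Elf3 kept it only without basal tumor B or luminal tumor C (adjusted p up to 0.119 for each), Nectin2 only without basal tumor C or luminal tumor C (up to 0.157), Amotl1 only without luminal tumor C (up to 0.131) while Cldn5 lost it in every such fit (0.0506 to 0.150). Pparg lost its call without luminal tumors A or B or luminal domains A or B (up to 0.107). With pan-epithelial centring, relative to a median of all genes of -1.39, the differences were 5.43 for Ildr1, 5.49 for Pparg, 2.12 for Tjp3, 0.91 for Elf3, -3.56 for Amotl1 and -7.62 for Cldn5, and with the 5 luminal libraries pooled those of Amotl1 and Cldn5 were -1.67 and -4.41. Over the 12 other settings Pparg kept its call and Nectin2 lost its call in 6, with log2 differences down to 0.64 and adjusted p up to 0.31, Cldn5 in 6 (up to 0.170), Amotl1 in 4 (up to 0.133), Tjp3 in 3 (up to 0.0694) and Elf3 in 3 (up to 0.112).

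In luminal domains against basal tumors Ildr1, Tjp3, Elf3 and Pparg were called again. Their log2 rises were 6.24, 3.57, 2.59 and 6.31 (limma adjusted p = 0.0283, 0.0316, 0.0258 and 0.0239). Mpdz, which encodes the multi-PDZ scaffold MUPP1, fell by 4.06 (adjusted p = 0.0481), from 444, 1127 and 801 to 69.7, 23.9 and 48.3. Basal cell, fibroblast and smooth muscle markers, given above, were also lower in luminal libraries than in basal tumors. Their part in the lower Amotl1 and Mpdz values was not tested. The median log2 differences were -0.81 for the other claudins, 1.27 for membrane proteins, 0.47 for scaffold and polarity genes, 0.75 for adherens junction genes and -0.18 for regulators, beside 0.0097 for all genes. Beside the 2.53% of all genes, limma called 1 of 13 membrane proteins, 2 of 28 scaffold and polarity genes, 2 of 19 regulators, 0 of 5 other claudins (0 at an unadjusted p under 0.05) and 0 of 11 adherens junction genes (6 at an unadjusted p under 0.05). All these calls were lost without a trend in limma's eBayes step, and that of Mpdz also without the filter. With pan-epithelial centring the differences were 4.79 for Ildr1, 2.13 for Tjp3, 1.15 for Elf3, 4.87 for Pparg and -5.50 for Mpdz, with the calls kept. Each of these calls was lost in at least 4 of the 6 fits that left out 1 library, the exceptions being basal tumor B for all but Mpdz and basal tumor C for Ildr1 and Pparg (adjusted p without each of the others up to 0.129 for Ildr1, 0.145 for Tjp3, 0.121 for Elf3, 0.121 for Pparg and 0.151 for Mpdz). No gene of these lists was called between luminal domains and luminal tumors or between basal-like and luminal domains.

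Finally, the genes whose pattern over libraries was nearest to each member were found by the root mean square difference of log2 values centred per gene, over genes whose mean reached 100 normalized counts. Over the 8 libraries of the tumor table (12346 genes), Ocln was nearest to Slc25a10 (0.31), Elf3 (0.35) and Kcnk1 (0.35), against a spread of 1.37 of Ocln itself. Cldn23 was nearest to Zfp667 (0.46), Sprr1a (0.78) and Aldh3b2 (0.78), against its own spread of 3.02. Cldn7 was nearest to Sgsm3 (0.36), Blnk (0.41) and Prss22 (0.42), against 1.39. No member was among the 3 nearest genes of another member in either table. For Cldn4, the nearest genes Slc6a9 (0.84), Rab15 (0.85) and Tmco4 (0.86) were less close.

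Over the 9 libraries of the 4-day table (12109 genes), Cldn4 was nearest to Capn5 (0.19), Eno1 (0.21) and Bspry (0.21), against a spread of 0.57. Cldn23 was nearest to Paqr6 (0.22), Shank2 (0.23) and Ivl (0.24), against 0.67. Cldn3 was nearest to another claudin, Cldn15 (0.45), and Cldn7 to the adherens junction gene Nectin4 (0.094), against spreads of 1.31 and 0.21. These distances describe likeness over few libraries that share their groups.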

How the data were processed

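RNA of sorted or laser-captured mouse bladder cells was made into full-length SMART-Seq v4 libraries. The submitters' processing notes name bcl2fastq 2.20, kallisto 0.44.0, sleuth, DESeq2 1.18 and the builds GRCm38 and GRCh38. The deposited signal values are gene-level normalized counts, which the authors made from kallisto estimates with DESeq2, separately for each table. The scaling between tables differed by gene. For luminal domain A, Cldn23 stood at 10761 in the table with basal tumors and 13468 in that with basal-like domains. Tjp1 stood at 4454 and 4507. They were used as deposited. Whole reads could not be recovered from them, so no count test was run, depth is unknown and no counting interval is given. Of the 29 samples, 21 were used, and 8 columns of untreated and 1-month BBN urothelium were not used because no label ties them to a condition.

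For each of 5 comparisons, log2(normalized count + 1) was fitted with limma 3.58.1 (R 4.3.3, lmFit and eBayes with a trend, two-sided) over genes that reached 10 normalized counts in a number of libraries equal to the smallest group of the table or more, and p-values were adjusted by Benjamini-Hochberg over all genes tested. A fold change on this scale understates the change of low genes. Luminal tumors, luminal domains and basal tumors of the tumor table were fitted as 3 groups with a shared spread. Levels per kb divide by the length of the principal transcript. Sequences, positions and figures were handled in Python 3.11.15 (matplotlib 3.10.9, pandas 2.3.3).

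The 9 genes, the lists and the tests were chosen with earlier results of these data known. The genes named are the 9 members, called genes of the junction and regulator lists (at most the 6 with the smallest p per list), Pparg and the 3 nearest genes by pattern. Cldn5 and Fabp4 serve as a cell type and transgene check. Alternatives were other pseudocounts (0.5 and 5), filters (none, or 50), eBayes and scaling settings, a Y-linked covariate, other sets of libraries, and leaving out each library. One further marker list is not reported here.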

Additional observations from a re-analysis of the deposited data

Results flagged for a closer look

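In 4-day controls the Cldn23 value of control A, 2365 normalized counts, stood apart from the other 3 controls, of which the nearest was 1003. The gap was 0.913 of the range of the group. It was 1 of 18 groups of member values examined, and chance alone flags about 1 in 20 groups at the 95% critical value used. Control A is also the control with a summed Y-linked level of 404, and the part of that difference was not tested for this value.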

How the results depend on the processing

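Direction held for Cldn23 and Ocln in both comparisons with basal tumors under all settings and with each library left out, but their calls did not (values above). No paired analysis was possible because the columns carry library codes and no replicate numbers. Depth is unknown, so its limit on low genes such as Cldn8 could not be given. The cause of the shifts below was not tested.

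With pan-epithelial centring, the log2 difference between luminal and basal tumors turned to -0.89 for Tjp1 and -0.75 for F11r. Under it, luminal domains against basal tumors turned to -0.89 for Cldn1, -0.34 for Cldn3, -0.82 for Tjp1 and -0.61 for F11r. Basal-like against luminal domains turned to 0.10 for Cldn3, 0.052 for Cldn4, 0.28 for Cldn7, 0.21 for Ocln, 0.32 for Tjp1 and 0.082 for F11r, where it moved the median of all genes from 0.0093 to 0.34. At 4 days Tjp1 turned to -0.14 with it (median of all genes -0.17), -0.029 with quantile normalization and -0.13 with the Y-linked covariate, Cldn23 to -0.40 with that covariate, and Cldn7 and Ocln to 0.19 and 0.0016 in the table of 3 against 3 libraries. Between luminal domains and luminal tumors Cldn7 turned to 0.079 (quantile), and Ocln to -0.034 (array weights), -0.0062 (quantile), -0.0019 (upper quartile) and -0.23 (pan-epithelial). Between the domains Cldn7 turned to 0.019 (quantile) and 0.0060 (upper quartile), and Tjp1 to 0.054 (array weights), 0.080 (quantile) and 0.050 (upper quartile).

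Members called between luminal and basal tumors, 2 in the main analysis, were 1 with no filter, with pan-epithelial centring and with only the 3 luminal and 3 basal tumors, and 0 without a trend. Between luminal domains and basal tumors they were 1 with no filter, upper-quartile scaling or pan-epithelial centring, and 0 without a trend. Among all genes the calls at 4 days, 467 in the main analysis, were 269 without a trend, 1054 with array weights, 217 with pan-epithelial centring, 147 in the table of 3 against 3 libraries and 25 with the Y-linked covariate. Between luminal and basal tumors 288 became 52 with no filter, 128 without a trend, 1652 with pan-epithelial centring, 513 with the 5 luminal libraries pooled and 142 with only the 3 and 3 tumors. Between luminal domains and basal tumors 377 became 144 with no filter, 107 without a trend and 5167 with pan-epithelial centring. Without a trend 7 genes were called between luminal domains and luminal tumors and 20 between the domains.

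The share of calls that were higher at 4 days, 62.1%, was 48.5% with quantile normalization, 37.3% with pan-epithelial centring and 36% with the Y-linked covariate. Between luminal and basal tumors 58.7% became 5.93% with pan-epithelial centring, 86.5% with no filter, 32.0% without a trend and 73.7% with pooled luminal libraries. Between luminal domains and basal tumors 67.4% became 3.39% with pan-epithelial centring and 57.2% with upper-quartile scaling.

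Leaving out 1 library gave 129 to 596 called genes and 0 to 1 members called at 4 days. Between luminal and basal tumors it gave 3 to 813 genes and 0 to 2 members, between luminal domains and basal tumors 0 to 467 genes and 0 to 3 members, and between luminal domains and luminal tumors 0 to 1 genes. Where 1 luminal domain was left, it was assumed to vary like the other groups. The log2 differences that changed sign at 4 days ranged from -0.0038 to 1.38 for Cldn3, -0.086 to 0.10 for Cldn7 and -0.019 to 0.098 for Tjp1. Between luminal and basal tumors Cldn1 ranged from -0.93 to 0.66, Cldn8 from -4.39 to 0.013 and Tjp1 from -0.068 to 1.177. Between luminal domains and basal tumors Cldn1 ranged from -0.54 to 1.49 and Cldn8 from -0.12 to 4.17. Between luminal domains and luminal tumors Cldn1 ranged from -1.03 to 0.40, Cldn3 from -3.82 to 0.89, Cldn7 from -0.99 to 0.42, Cldn23 from -0.53 to 1.20, Ocln from -0.50 to 0.56, Tjp1 from -0.28 to 0.96 and F11r from -0.12 to 0.67. Between the domains Cldn1 ranged from -0.22 to 1.78, Cldn3 from -1.69 to 0.78, Cldn4 from -0.57 to 0.21, Cldn7 from -0.47 to 0.25, Ocln from -0.34 to 0.20 and Tjp1 from -0.32 to 0.23.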
